A study of Mus musculus with 6 samples.

Results

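The expression programme described here is that of the B16-F1 control line, a mouse melanoma line in culture, as read on the 2 arrays labelled control shRNA out of the 6 arrays of the series. B16-F1 is a pigmented line of C57BL/6J origin. The cells had been made stable carriers of a lentivirus whose shRNA targets GFP, a jellyfish protein that mouse cells do not make, and they grew in DMEM with 10% serum under 5% CO2. The other 4 arrays come from lines that carry shRNAs against the histone variants macroH2A1 and macroH2A2, and none of their values was used. Every line of the series carries a lentiviral shRNA, so the values describe a transduced stable line and not the parental one, and the series gives its 2 arrays as independent biological replicates. Total RNA was labelled with biotin by in vitro transcription from the poly(A) end and hybridised to one-colour Affymetrix 3' arrays.

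Melanocytes arise from the neural crest and make melanin inside melanosomes, organelles related to lysosomes. Tyrosinase, encoded by Tyr, begins the synthesis from tyrosine, and the related enzymes Dct and Tyrp1 act on later intermediates while the fibrils built from Pmel hold the pigment. The factors SOX10 and PAX3 drive Mitf, and MITF in turn binds the promoters of pigment genes. Melanomas keep parts of this programme to different degrees and commonly add signalling through receptor tyrosine kinases, RAS and RAF, loss of the Cdkn2a tumour suppressor and a metabolism suited to growth.

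The measurement is a signal intensity per probe set. Each array held 45101 probe sets, of which 34945 carried exactly 1 gene symbol, and these stood for 18193 genes, each represented by its probe set with the highest mean. Both arrays had a trimmed mean of 150.0, while the median signal was 24.6 on replicate 1 and 15.1 on replicate 2. The background bound was the 95th percentile of the signal over 73 chemosensory receptor genes, receptors of smell and taste used as a stand-in for silent genes, and it came to 19.3 on replicate 1 and 12.6 on replicate 2. A gene is called above background where it passed the bound on both arrays, at background where it passed on neither, and bright where its mean was in the top 10% of genes, which began at 834.9. By these rules 10758 genes, 59.1%, were above background, 6451, 35.5%, were at background, and 1820, 10.0%, were bright. Of the 73 stand-in genes 3 were above background on both arrays. As a sign of RNA quality, the control probe sets for Actb gave a 3′ to 5′ ratio of 1.25 and 1.28, and those for Gapdh 0.83 and 0.84.

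Signals are not calibrated between probe sets, so a rank here is a rank of signal and not of transcript number, and a low signal does not show that a gene is silent. Rps16, a ribosomal protein gene that every cell uses, shows this: its sole probe set read 0.3 and 0.3. Genes with several probe sets were above background more often, 75.5% against 43.0% of those with 1. Of the 73 stand-in genes 67 had a single probe set, whereas other genes were often read from the brightest of several. The share of a list above background can therefore depend in part on how many probe sets its genes have. Since RNA came from whole cultures, fewer cells expressing a gene and less RNA per cell cannot be told apart. In what follows the value of replicate 1 is given first and that of replicate 2 second, and with 2 arrays in a single group the values are described without a test.

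The replicates ordered genes alike. Over the 18193 genes Pearson's r of log2(signal + 16) was 0.989 and Spearman's rho was 0.965, across genes, which are not independent replicates. Among bright genes 97.2% agreed within 1.5-fold and the median absolute difference was 0.15 on the log2 scale. Among the 8938 other genes above background 85.0% agreed within 1.5-fold, with a median absolute difference of 0.25. Bright values are therefore read more closely than dim ones throughout.

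**Figure D1:**
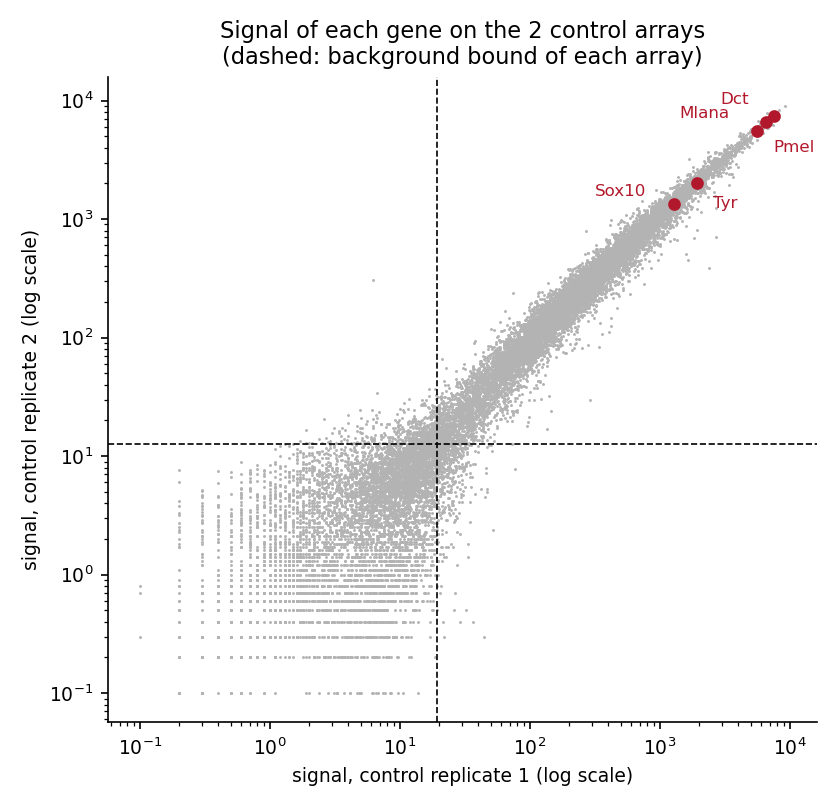
Signal of each gene on control replicate 2 against control replicate 1, both axes logarithmic, with the background bounds of 19.3 and 12.6 as lines and the marker genes named. The scatter is narrow among bright genes and widens toward the bounds, and Dct, Mlana, Pmel, Tyr and Sox10 lie in the narrow upper end. A signal under 0.1 is drawn at 0.1, which applies to 1 gene.

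The melanoma label was matched by the defining markers of pigment cells. Dct, the dopachrome tautomerase, read 7580.8 and 7353.8, a mean of 7467 ± 161 (SD, n = 2). Mlana, a melanosome protein known as an antigen of melanoma, read 6611.9 and 6591.1, a mean of 6602 ± 14.7 (SD, n = 2). Pmel, the fibril protein, read 5579.1 and 5541.5, a mean of 5560 ± 26.6 (SD, n = 2). By mean signal these 3 genes ranked 6, 27 and 64 of 18193 genes. Tyr read 1917.2 and 2031.7, and a mean of 1974 ± 81.0 (SD, n = 2), at percentile 96.8. Sox10, the neural crest factor, read 1288.3 and 1337.3, and a mean of 1313 ± 34.7 (SD, n = 2), at percentile 94.3. All 5 markers were bright, and their replicates differed by less than the typical bright gene. Tyr and Sox10 rest on their best of 3 probe sets. The other Tyr probe sets read 770.3 and 493.0, and 227.2 and 192.5. The other Sox10 probe sets read 134.5 and 112.8, and 22.8 and 17.1, so even the dimmest was above the bound on both arrays.

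The pigment and melanosome genes were all above background: 22 of 22 measured genes, of which 14 were bright, beside 59.1% and 10.0% of all genes. Tyrp1, the enzyme that stabilises tyrosinase and acts late in eumelanin synthesis, read 7162.9 and 6990.4. Its other probe sets read 5999.7 and 5517.5, and 6182.8 and 5685.2, so all 3 of its probe sets passed the bright threshold. Gpnmb, a glycoprotein related to Pmel, read 6725.6 and 6588.3. Among transport genes Rab38, a small GTPase that sorts tyrosinase family cargo to melanosomes, read 3346 and 4013.8, and Slc45a2, a melanosome membrane transporter, read 2335.3 and 2443.2. The copper pump Atp7a, which loads tyrosinase with its cofactor, read 1615.6 and 1222.1. These cargo and supply genes were thus bright together with the enzymes.

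The machinery that carries melanosomes to the cell periphery was also bright. Rab27a, the GTPase on the melanosome, read 1031.4 and 1164.4. Mlph, its adaptor melanophilin, read 664.1 and 1084.4, and Myo5a, the motor on which the complex rides, read 1503.2 and 1566.4. All 3 parts of the complex were therefore present in the top 10% of signals. Trpm1, a channel gene whose intron holds a melanoma-linked microRNA, read 1012.7 and 1688.6, and the melanosomal receptor Gpr143 read 806.8 and 968.3. Lower but above background were Oca2, a melanosomal anion channel, at 554.7 and 508, the ion channel Tpcn2 at 55.4 and 35.3, and the exchanger Slc24a4 at 35.4 and 13.9, the dimmest of the list.

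The promoters of the pigment enzymes are shown because they carry the letters that the lineage factor reads. The M-box, an extended E-box known as a MITF site, was searched by its core GTCATGTGC on both strands of RefSeq promoter windows of GRCm38.p6, which run from 250 bases before to 50 bases after a gene's start. The core was found in 95 of 32851 windows, 0.289%, and among 16 pigment genes with a window it was found in 3, Tyr, Tyrp1 and Dct. The shorter TCATGTG, which lies within the core, was found in 3.77% of windows and adds Trpm1. The hexamer CATGTG inside both was found in 14.2% of windows and adds Oca2. Below are the 250 bases before the start, 5′ to 3′ on the gene's strand, for Tyr at chr7:87493513-87493762 on the minus strand, Tyrp1 at chr4:80833963-80834212 on the plus strand, Dct at chr14:118052247-118052496 on the minus strand and Trpm1 at chr7:64153585-64153834 on the plus strand. Capitals mark the core in the first 3 and TCATGTG in Trpm1.
Tyr: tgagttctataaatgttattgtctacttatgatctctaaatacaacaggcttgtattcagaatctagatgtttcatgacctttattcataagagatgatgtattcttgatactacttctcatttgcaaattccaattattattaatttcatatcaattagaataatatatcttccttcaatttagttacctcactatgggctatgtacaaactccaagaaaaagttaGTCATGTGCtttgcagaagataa
Tyrp1: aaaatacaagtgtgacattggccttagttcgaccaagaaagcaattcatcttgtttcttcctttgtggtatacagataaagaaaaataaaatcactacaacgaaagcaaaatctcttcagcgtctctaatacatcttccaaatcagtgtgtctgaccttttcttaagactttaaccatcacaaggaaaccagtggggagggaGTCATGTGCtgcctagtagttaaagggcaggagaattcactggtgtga
Dct: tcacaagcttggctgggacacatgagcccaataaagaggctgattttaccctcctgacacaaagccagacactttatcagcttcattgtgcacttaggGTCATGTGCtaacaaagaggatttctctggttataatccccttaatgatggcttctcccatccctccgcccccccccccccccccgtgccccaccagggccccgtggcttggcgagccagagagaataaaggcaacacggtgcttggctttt
Trpm1: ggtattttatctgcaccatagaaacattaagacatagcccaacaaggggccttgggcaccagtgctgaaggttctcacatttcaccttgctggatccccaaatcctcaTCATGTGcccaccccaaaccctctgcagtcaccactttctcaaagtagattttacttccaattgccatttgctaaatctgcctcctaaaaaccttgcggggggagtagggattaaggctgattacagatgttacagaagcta
The first base of the motif lay at -23 in Tyr, at -48 in Tyrp1, at -152 in Dct and at -142 in Trpm1, counted back from the start. All 4 genes were bright. A match to these letters is a description of the window: of the 28 measured genes with the core, 16, 57.1%, were above background, beside 59.1% of all genes. C1qb, a complement gene with the core, read 9.8 and 1.

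Among 20 lineage regulators 13, 65.0%, were above background, beside 59.1% of all genes, and 5 of them were bright. Mitf, the master factor of melanocytes, read 3460.1 and 2963.5, and a second probe set read 144.7 and 80.8. Mc1r, the melanocortin receptor that raises cyclic AMP and Mitf, read 2060.4 and 1713.1. Pax3, which acts with SOX10 on Mitf, read 1833.2 and 1751.9. With Sox10 these made up a bright core of the lineage circuit, joined by Zeb2, a zinc finger factor of melanocyte differentiation, at 1069.9 and 871.5. Tfap2a, a neural crest and pigment factor, read 548.8 and 501.2. Of the MITF relatives, Tfe3 read 193.3 and 171.7, and Tfeb read 37.9 and 40.3.

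Several other members of the regulator list were near or at background. Kit, the receptor for stem cell factor that melanoblasts need, read 121.1 and 30.6, with replicates that differ more than 2-fold, and its second probe set was at background with 11.3 and 5.1. Ednrb, the endothelin receptor of the lineage, read 13.7 and 9.9. Lef1, a nuclear partner of beta-catenin, read 12.7 and 7.9. Irf4, a pigmentation factor, read 2.4 and 7.5, and Foxd3, a factor of early neural crest, read 7.2 and 8.8. All 22 measured genes of the pigment list were above background, while 7 of 20 regulators were at background: Ednrb, Lef1, Irf4, Foxd3, Sox2, Tfap2b and Dusp15. Sox2, a stem cell factor, read 4.8 and 3, and Sox9, the SOXE relative of Sox10, read 47.6 and 63.5 and so was above background.

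Of neural crest and Schwann cell genes 10 of 16, 62.5%, were above background, close to the 59.1% of all genes, and 5 were bright. Mbp, the myelin basic protein, read 1456.7 and 1609. S100b, a calcium-binding protein of glia and melanocytes, read 1203.6 and 841.3. Cdh19, a cadherin of crest-derived glia, read 978.7 and 1011.4, and L1cam, an adhesion molecule of axons, read 1059.9 and 786.3. These 4 were bright beside Sox10. Erbb3, the neuregulin receptor of the crest, read 713.7 and 455.4, and Nes, the progenitor filament nestin, read 154.4 and 132.7. Ngfr, a marker of crest stem cells, read 18 and 7, and Gfap, a filament of glia, read 1.6 and 5.7, and both were at background.

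Genes of 9 other lineages stood apart from the melanocyte genes. The neural crest and Schwann cell list, with 5 of 16 bright, and the cancer-germline list, with 3 of 12 bright, are not among the 9. Of the 9 lineages 141 genes were measured, and 25, 17.7%, were above background, beside 59.1% of all genes. At background were 108, and 0 were bright. The 141 genes had a median percentile of 23.8. Of the 42 genes on the pigment and regulator lists, 35, 83.3%, were above background and 19 were bright, with a median percentile of 85.9. The highest signal in the other lineages was that of Tubb3, a tubulin of neurons and dividing cells, at 560.9 and 413.3.

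**Figure D2:**
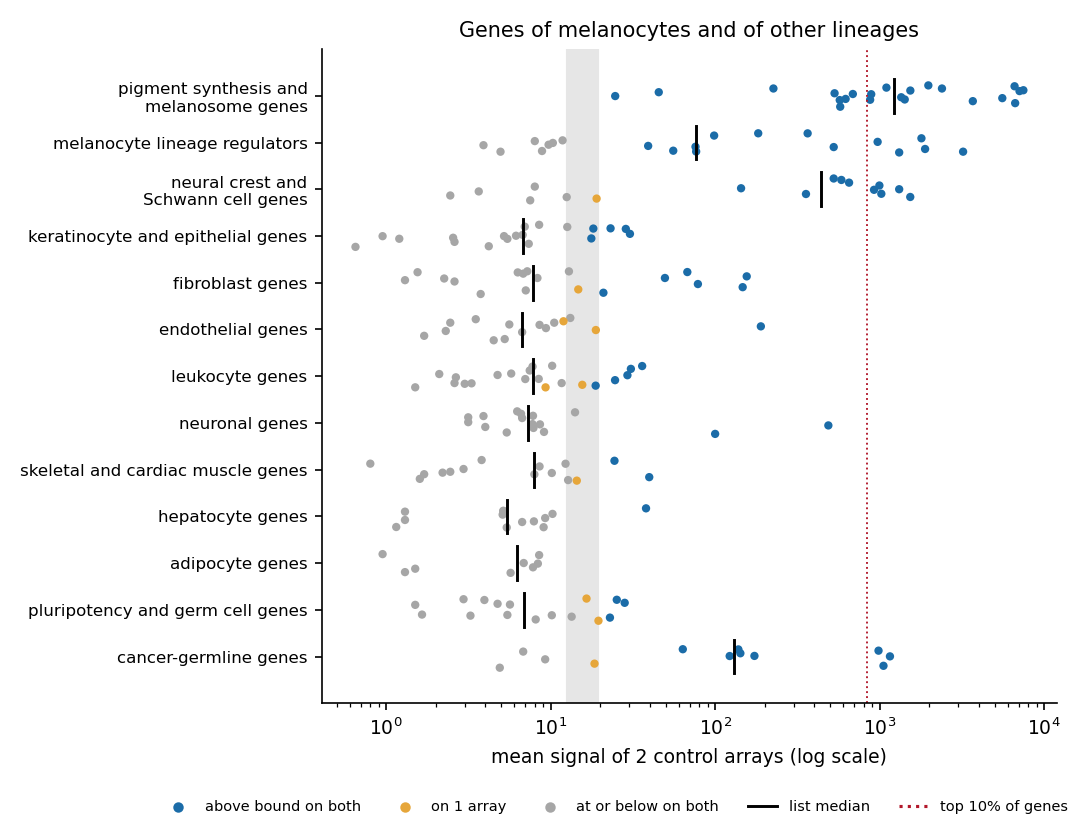
Mean signal over the control arrays on a logarithmic axis for each member of the lineage lists, 1 point per gene coloured by its class, with list medians as black bars, the range of the background bounds as a grey band and the bright threshold as a dotted line. The pigment genes reach 7467.3, while no gene of the 9 other lineages passes 487.1 and most lie near or under the bounds. The neural crest and cancer-germline lists are drawn too, are not among the 9, and reach 1532.8 and 1153.7.

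Most defining genes of other cell types that a culture could hold were near or below the bounds. Of 19 keratinocyte and epithelial genes 5 were above background. Among them Epcam read 36.6 and 20.6, Grhl2 read 34.4 and 26.2, and Lor read 19.8 and 15.5. The remaining members above background were 2 of 8 keratins, Krt5 at 25.9 and 20.3, and Krt8 at 21.2 and 15.1. The basal keratin Krt14 read 4.8 and 3.6, and the suprabasal Krt10 read 1.3 and 1.1. Of 21 leukocyte genes 5 were above background, Csf1r, Fcer1g, Cd8a, Cd68 and Spi1. Cd8a read 28.8 and 29.7, while Ptprc, the pan-leukocyte CD45, read 3.1 and 2.1, and the T cell receptor chain Cd3e read 2.9 and 3.1. Csf1r, the macrophage receptor, read 43.9 and 28 and was the highest of 21 leukocyte genes. For endothelium Pecam1, the CD31 adhesion molecule, read 10.5 and 0.7, and Cdh5, the endothelial cadherin, read 6.5 and 10.6. Egfl7, a secreted factor of vessels, was the sole endothelial gene of 15 above background, at 232.1 and 146.6. For hepatocytes 1 of 13 genes was above background, and Alb, the albumin gene, read 1.6 and 0.7. For adipocytes 0 of 8 were above background.

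Fibroblast genes were the most often above background among these lists, 6 of 18, without being bright. Fn1, the matrix glycoprotein fibronectin, read 192.9 and 117.8, and Col5a1, a fibrillar collagen chain, read 205.4 and 88.2. Postn, a matrix protein of stroma, read 101.7 and 55.2. Of the defining genes Pdgfra, a receptor of mesenchymal cells, read 82.9 and 52.4, and Col1a2, a chain of type I collagen, read 52.8 and 46.1, and both were above background. The more abundant products of fibroblasts did not follow: Col1a1 read 17 and 8.8, Col3a1 read 11 and 5.6, and the proteoglycan Dcn read 13.5 and 0.6, all at background. Neurons gave Tubb3 and Map2, a microtubule protein, at 97 and 102.7, as the 2 of 16 above background, while Snap25 read 5.1 and 2.7, and Syn1 read 4.9 and 5.9, both proteins of the synapse.

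Pluripotency and germ cell genes were seldom above background, 3 of 16, 18.8%, beside 59.1% of all genes. Pou5f1, the OCT4 factor, read 1.2 and 4.7, and Nanog read 0.8 and 2.5. Cancer-germline genes were above background in 8 of 12 cases, 66.7%, near the 59.1% of all genes. Bright were 3, the mitotic kinase Pbk at 991.5 and 1315.9, the cytokinesis protein Cep55 at 1061.7 and 1045.7, and Maged1 at 1038.2 and 928. These 3 also serve dividing or somatic cells. Spa17, a sperm protein, was above background at 87.9 and 39.1, and Brdt, a bromodomain protein of testis, read 24.8 and 12.1 and passed the bound on replicate 1 alone. At background were Prame, a melanoma antigen, at 8.3 and 5.3, and Magea4, a testis antigen, at 10.1 and 8.4.

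Of oncofetal and imprinted growth genes 6 of 13, 46.2%, were above background, beside 59.1% of all genes. Plagl1, an imprinted zinc finger gene, read 5361 and 5309.4 and was the sole bright member, but that value rests on a probe set marked as cross-hybridising and its other probe sets read 111.7 and 47.9, and 116.7 and 60.6. Hmga2, a chromatin protein of embryonic cells, read 268.6 and 219, and Igf2bp1, a fetal RNA-binding protein, read 64.6 and 73.8. The imprinted growth factor Igf2 read 4.3 and 3.6, and Afp, the fetal albumin, read 2.4 and 3.5, both at background.

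Transcription factors of embryonic position and fate were few. Clustered Hox genes were above background in 9 of 33 cases, 27.3%, beside 59.1% of all genes. The count fell mostly on 1 cluster: 7 of 9 Hoxa genes, 2 of 8 Hoxd genes, 0 of 9 Hoxb genes and 0 of 7 Hoxc genes. Hoxa10 read 259.5 and 290, and Hoxa9 read 253.1 and 242.6, genes which pattern the posterior body. Hoxd13 read 93.3 and 143.3. Of their dimmer neighbours, Hoxa13 read 7.8 and 8.6, and Hoxa4 read 6.6 and 1.8, at background. Of SOX factors 8 of 18 were above background, with Sox4, a factor of progenitors, bright at 1805.3 and 1857, and Sox11, its close relative, at 789.3 and 822.9. Of PAX factors 2 of 8 were, Pax3 and Pax9, the latter at 19.9 and 19.9.

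The mesenchymal side of the epithelial to mesenchymal axis was strong in part. Vim, the filament vimentin, read 6738.1 and 6185.9 and was among the 30 brightest genes. Snai2, which melanocytes also use, read 557.2 and 744.6, and Zeb2 was bright as above. Among members at background, Zeb1 read 17 and 10.2, Snai1 read 11.5 and 7.7, and Twist1 read 3.7 and 1.2. Also above background were Tcf4, an E protein, at 663.2 and 678.5, and Snai3 at 35.6 and 15. Thus 5 of the 12 genes on the list, 41.7%, passed the bounds, beside 59.1% of all genes. Among cadherins, the neural cadherin Cdh2 read 860.5 and 751.5, and the epithelial cadherin Cdh1 read 17.4 and 7.8, at background.

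Cell cycle genes were almost all high, with 27 of 28 cyclins, kinases and replication genes above background and 19 bright. Pcna, the polymerase clamp, read 4174.6 and 5345.4. All 6 measured MCM helicase subunits were bright, from Mcm2 at 947.8 and 1230.4 to Mcm7 at 2005.8 and 2241.4. Mki67, the proliferation antigen, read 2050.9 and 1712.6, and Cdk1, the mitotic kinase, read 1664.6 and 1762. All 3 D cyclins were bright, with Ccnd2 at 3776.8 and 3712.6, Ccnd1 at 966.6 and 1378.2, and Ccnd3 at 918.5 and 1027.2. Cdk4, their partner, read 1182.6 and 1098.1, and its relative Cdk6 read 151.5 and 186.1. The exception was Ccna1, the cyclin of male germ cells, at 14.2 and 1.4.

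The inhibitors of the cycle were present except at 1 locus and at the imprinted Cdkn1c. Cdkn1b, the p27 inhibitor, read 2058.1 and 2104.9, Cdkn2d, the p19 inhibitor, read 1143.3 and 1231.2, and Cdkn1a, the p53 target p21, read 852.6 and 841.6, all bright. Cdkn2c, the p18 inhibitor, read 703.2 and 819.5. In contrast Cdkn2a, which encodes p16 and ARF, read 8.4 and 1.5, and its neighbour Cdkn2b read 2.1 and 1, each from 1 probe set at background. In the gene order of RefSeq on GRCm38.p6 the neighbour on the other side of Cdkn2a, Mtap, an enzyme of methionine salvage, read 1429.3 and 1781.1 and was bright. Past Cdkn2b, Dmrta1 read 9.1 and 3.5, and beyond Mtap the interferon gene Ifna1 read 9.8 and 1.6, both at background. The signals do not tell a deleted gene from a silent one, and the copy number was not tested. Tumour suppressors above background included Rb1, the retinoblastoma gene, at 294 and 269.2, and Nf1, the RAS GTPase activator, at 54.3 and 61.7.

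The MYC network was above background without a bright member, in 8 of 10 genes, 80.0%, beside 59.1% of all genes. Myc read 217.9 and 248, and of its antagonists, Mxd3 read 519.1 and 393.6, and Mxi1 read 610.4 and 409.3. Mycl read 10.6 and 0.8, at background, and Mycn read 15.6 and 27.2, above the bound on 1 array.

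Receptor tyrosine kinases pass growth factor signals into the cell, and 20 of 36, 55.6%, were above background, close to the 59.1% of all genes. Met, the receptor for hepatocyte growth factor, read 3500.7 and 3253.5, and ranked first of the 36 by signal. That rank rests on its brighter probe set, and its second probe set read 117.3 and 99.5, above the bounds and not bright. Ddr1, a collagen receptor, read 2410.4 and 1825.3, and Ddr2, its relative, read 700.5 and 602.7. Erbb3, given above, came next. Only Met and Ddr1 were bright among the 36. Ryk, a Wnt-binding receptor, read 464.5 and 563.3, the insulin receptor Insr read 199.2 and 146.7, and Igf1r read 97.4 and 67. Egfr read 66.9 and 47.5, and Axl, linked to undifferentiated melanoma, read 62.7 and 25.6, low but above the bounds.

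Several receptors sat at the floor of the arrays. Erbb4, a neuregulin receptor, read 0.1 and 0.3, and Pdgfrb, a receptor of stroma, read 2.9 and 2.3. Flt1, a VEGF receptor, read 3.8 and 6.7, and Alk read 9.9 and 6.4. The TAM family was measured in full, with Mertk at 77.1 and 68.9, Axl above and Tyro3 at 42 and 36.9, and its ligand Pros1, protein S, at 171.4 and 131.6, whereas the ligand Gas6 read 18.2 and 1.6, at background. Of Eph receptors 5 of 12 were above background, and Epha3, a guidance receptor, was bright at 1530.3 and 1351.1. Of its relatives, Epha4 read 16.1 and 4.8, and Epha5 read 9.8 and 9.8, both at background, while the ephrin Efna5, a ligand of Epha3, read 320 and 289.5.

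**Figure D3:**
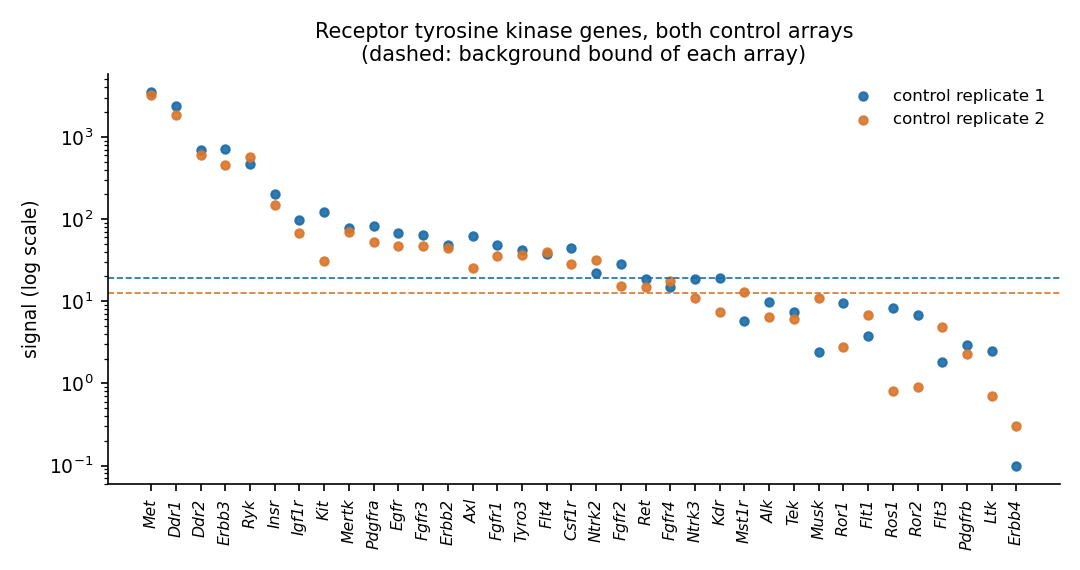
Signal of each of the 36 receptor tyrosine kinases on both control arrays, logarithmic vertical axis, ordered from left to right by falling mean. The background bound of each array is a dashed line. Met and Ddr1 lie highest at the left end, 20 members pass the bounds and Erbb4 lies lowest at 0.1 and 0.3.

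Growth factor ligands were dimmer, with 14 of 30, 46.7%, above background, beside 59.1% of all genes, and 0 bright. The vascular factors led: Vegfc, a lymphatic growth factor, read 574.4 and 495.6, Vegfb read 433.8 and 392.7, and Vegfa read 587.4 and 234.1. Angpt2, a vessel destabilising ligand, read 198.3 and 219.7. Pdgfa read 112.2 and 173.5, and Fgf1 read 93.2 and 64.3. Ligands at background included Hgf, the Met ligand, at 6.4 and 10, Igf1 at 5.3 and 4.8, Nrg1, the neuregulin, at 3.3 and 0.5, and Fgf2 at 0.7 and 0.6. Thus Met and Erbb3 were measured well above background while Hgf and Nrg1 were not.

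The RAS, RAF and MAP kinase relay was above background almost throughout, in 16 of 17 genes. Rap1b read 1854 and 2302.5, and Rap1a read 1601.9 and 1887.7, both RAS-like GTPases. Ptpn11, the SHP2 phosphatase that supports RAS, read 1090.6 and 1392.1. Map2k1, the MEK1 kinase, read 1007 and 911.4, the fourth bright member. Nras read 624.8 and 704.6, Braf read 320.2 and 298.1, and Araf read 216.7 and 209.2. The exception, Ksr2, a scaffold of brain, read 26.4 and 3.6, and passed the bound on 1 array.

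Genes that this relay induces as feedback or early response were above background in 17 of 23 cases, 73.9%, beside 59.1% of all genes. Bright were 6 of them. Phlda1, an early response gene, read 3243.7 and 3176.9, and Ier3, another, read 3630.1 and 2257.2. Dusp6, a cytoplasmic ERK phosphatase, read 682.3 and 1233.9, and Dusp4, a nuclear one, read 772 and 1094.4. Beside them Spred1 read 482 and 461, and Spry2 read 203.2 and 331.7, both inhibitors of RAS activation. Other ERK-linked genes were at background, with Etv4 at 9.5 and 2.6, Fosl1 at 9.9 and 1.2, Dusp5 at 7 and 5.9, and Egr2 at 1.7 and 3.1. Egr1, an early gene induced within minutes, read 6.2 and 308.1, at background on replicate 1 and clearly above on replicate 2, and gave the pair with the least agreement among the feedback genes.

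PI3K and mTOR genes were above background in 19 of 21 cases. Pik3cd, a catalytic subunit best known in leukocytes, was the brightest at 3854.3 and 2919.4, while the widely used Pik3ca read 362.4 and 328.3, and Pik3cb read 84.7 and 114.6. The leukocyte subunit Pik3cg read 10 and 2.9, and the leukocyte phosphatase Inpp5d read 19 and 6.3, both at background. Of the 21 leukocyte genes listed above, 5, 23.8%, were above background, beside 59.1% of all genes, and 0 were bright. The highest of the 21, Csf1r, read 43.9 and 28, and Ptprc read 3.1 and 2.1. Which cells gave the Pik3cd signal was not tested. Eif4ebp1, a translation repressor under mTOR, read 2889.8 and 2447.5, and Rheb, the GTPase that activates mTOR, read 2076 and 2172.9. Akt1 read 1200.4 and 949.1, and Akt2 read 200.1 and 178.2.

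Of 19 Wnt ligands 3, 15.8%, were above background, beside 59.1% of all genes. They were Wnt7b at 64.7 and 25.7, Wnt6 at 37.8 and 31.9, and Wnt10a at 29 and 25.6, while the ligands at background included Wnt5a, a ligand of invasive melanoma, at 8.4 and 7.2, and Wnt3, at 2.3 and 0.5. Of 33 receptors and pathway genes 22, 66.7%, were above background, and 8 of 10 Frizzled receptors were. Ctnnb1, beta-catenin itself, read 5851.2 and 5515.2. Fzd7 read 894.6 and 830.8 and was the bright Frizzled, and the coreceptor Lrp6 read 536.7 and 392.2. Among nuclear partners Tcf7l1 read 245.1 and 200.9, and Tcf7l2 read 140 and 124.6, above background, unlike Lef1. Axin2, a feedback target of the pathway, read 76.8 and 76.3. Dvl3, a relay protein, read 2.2 and 0.9, while Dvl1 read 686.8 and 707.2.

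Notch genes were above background in 12 of 22 cases, 54.5%, beside 59.1% of all genes, with 0 bright. Notch2 read 361.6 and 304.8, and Notch1 read 84.6 and 59.4, and the DNA-binding partner Rbpj read 301 and 283.1. Jag1, a ligand, read 144.6 and 154.1, while of the Delta ligands, Dll4 read 19.2 and 6.1, and Dll3 read 16.4 and 7.8, both at background. Among targets Hes1 read 53.2 and 49.8, and Hey2 read 5 and 6.5, at background.

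TGF-beta and BMP genes were above background in 26 of 36 cases, 72.2%, beside 59.1% of all genes, and 7 of 8 SMADs were. Id2, a BMP target that restrains differentiation, read 2241.5 and 2016.2. Smad4, the shared SMAD, read 1147.5 and 1198.5, and Bmpr2, a BMP receptor, read 967.1 and 916.3. Other receptors above background included Tgfbr1 at 635.6 and 583.9, and Tgfbr2 at 438.2 and 378.6. Ligands were dimmer: Tgfb2 read 123.5 and 131, and Tgfb1 read 45.8 and 50.6, while Bmp4 read 10.1 and 3.3, and Bmp2 read 2.2 and 4.4, at background, as did the antagonist Nog at 4.9 and 1.1.

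In the Hedgehog pathway 7 of 12 genes, 58.3%, were above background, beside 59.1% of all genes. The receptor Ptch1 read 456.3 and 406.6, the transducer Smo read 375.9 and 384.5, and Gli3 read 382.6 and 360.9. Of the activating factors, Gli1 read 14.7 and 9.3, and Gli2 read 6.2 and 6, and the ligand Shh read 12.3 and 0.7, all at background. In the Hippo pathway 16 of 17 were above background and 4 were bright. Yap1, the coactivator, read 1181 and 1413.5, its relative Wwtr1 read 747.5 and 663.4, and Vgll3, a TEAD cofactor, read 1655.9 and 1930.4. All 4 TEAD factors were above background. No target was bright: Ccn2 read 40.9 and 55.5, Ankrd1 read 0.5 and 6.7, and Ccn1 read 73.7 and 239.5, the last with one of the widest differences between replicates.

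Cytokine receptor and JAK-STAT genes were above background in 24 of 32 cases, 75.0%, beside 59.1% of all genes. Il10rb, a subunit shared by several cytokine receptors, was bright at 1817.5 and 1786.3. Of the interferon receptor chains, Ifnar2 read 558.9 and 392, and Ifngr2 read 242.2 and 235.4, and Stat3 read 288.7 and 222.1. Of members known from leukocytes, Il7r read 7.2 and 10.1, and Stat4 read 0.7 and 0.8, both at background, while Jak3 read 23.4 and 12.9, just above the bounds. Innate receptor and NF-kB genes were above background in 20 of 26 cases, 76.9%. Among them were the RNA sensor Ifih1 at 245.5 and 256.3, the adaptor Sting1 at 212.5 and 230.6, and the receptor Tlr4 at 225.7 and 264. Nfkbia, the inhibitor and target of NF-kB, was bright at 1695.2 and 1641.7, while 4 of 9 Toll-like receptors were above background and Tlr7 read 6.3 and 6.5.

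Of death receptors, their ligands and the BCL2 family 19 of 29, 65.5%, were above background, beside 59.1% of all genes. Mcl1, a survival factor, read 1415.8 and 1646.7, and Bcl2, a MITF target, read 253.7 and 241.6. Birc5, survivin, read 1838.2 and 2034.6, and Casp8, the initiator caspase, read 1179.6 and 1224.1. Against these, Fas, a death receptor, read 1.6 and 0.6, and Pmaip1, the BH3 protein NOXA, read 3.4 and 0.2, both among the lowest signals of the list. Other BH3 genes were above background, with Bcl2l11 at 180.2 and 162, and Bbc3 at 72.5 and 62.1.

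Nuclear receptors were above background in 22 of 38 cases, 57.9%, beside 59.1% of all genes. The sole bright member was the clock gene Nr1d2 at 624.8 and 1119.9. Of the orphan receptors, Nr4a1 read 486.9 and 402.3, and Nr4a3 read 570.7 and 303, genes which cyclic AMP induces in melanocytes. Nr2f2 read 310.8 and 245.9, and Nr2f1 read 200.2 and 292.6, both crest factors. Among retinoic acid receptors Rarg read 92.2 and 72.6, and Rarb read 56 and 82.3, above background, and Rara read 14 and 3.4, at background from its only probe set. The vitamin D receptor Vdr read 8.3 and 8.8, and Pparg read 1.5 and 1.5, both at background.

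G protein-coupled receptors were seldom above background, 8 of 25, 32.0%, beside 59.1% of all genes. The bright pair, Mc1r and Gpr143, belongs to the pigment programme. S1pr2, a lipid receptor, read 199.9 and 231.5, and Ackr3, a chemokine scavenger, read 156.8 and 166.4. Cxcr4, the chemokine receptor linked to metastasis, read 1.4 and 1.3, and Ccr7 read 0.7 and 0.4, both at background, as was the glutamate receptor Grm5 at 3.3 and 1.3.

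Integrins, the receptors for matrix, were above background in 14 of 24 cases, 58.3%, beside 59.1% of all genes. Of 16 alpha chains 10 were above background, and of 8 beta chains 4 were. Itgav read 2789.3 and 2412.6, Itgb1 read 1669.7 and 1032.4, and Itga6, a laminin receptor chain, read 983.4 and 736.3, the bright members. Itga4, which binds VCAM1, read 578 and 337.7. Itgb3, linked to invasive melanoma, read 60.5 and 44.6, above background and dim, and Itgb4 read 5.8 and 5.2, at background. Among other surface proteins Cd44, the hyaluronan receptor, read 3117.1 and 2626.2, and the tetraspanins Cd81, Cd151 and Cd9 were bright, led by Cd81 at 3493.6 and 2734.8. Mcam, a melanoma adhesion molecule, read 474.1 and 358.6. Icam1 read 4.8 and 7.6, and Vcam1 read 11.7 and 12, ligands of leukocyte integrins that were both at background.

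Antigen presentation genes of class I were above background in 15 of 15 cases. B2m, the light chain, read 6172.8 and 5906.7, and of the heavy chains, H2-D1 read 2557.6 and 2064.9, and H2-K1 read 2337.1 and 1547.3. The peptide transporter and immunoproteasome genes were above background with none bright: Tap1 read 90.8 and 77.8, Psmb9 read 57.5 and 35.3, and Psmb8 read 28.6 and 28. H2 genes are near copies of each other, so the probe sets of a heavy chain can read another. Class II and checkpoint genes were above background in 7 of 19 cases, 36.8%, beside 59.1% of all genes. H2-Aa read 13.8 and 1.2, and H2-Ab1 read 2 and 10.3, both at background. Cd274, the PD-L1 ligand, read 80.5 and 60.3, and Cd47, which restrains phagocytes, read 648.4 and 548.

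Metabolic genes were the brightest of the categories: 338 of 431, 78.4%, were above background and 170, 39.4%, were bright. This category includes the ribosomal protein list, with 28 of 32 bright, and the lysosome list, with 15 of 25 bright, which raise its share. Signalling genes were above background in 308 of 489 cases and bright in 47, 9.61%, near the 10.0% of all genes. Arrays of other cell types were not used, so these shares describe the line and mark nothing as particular to it.

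**Figure D4:**
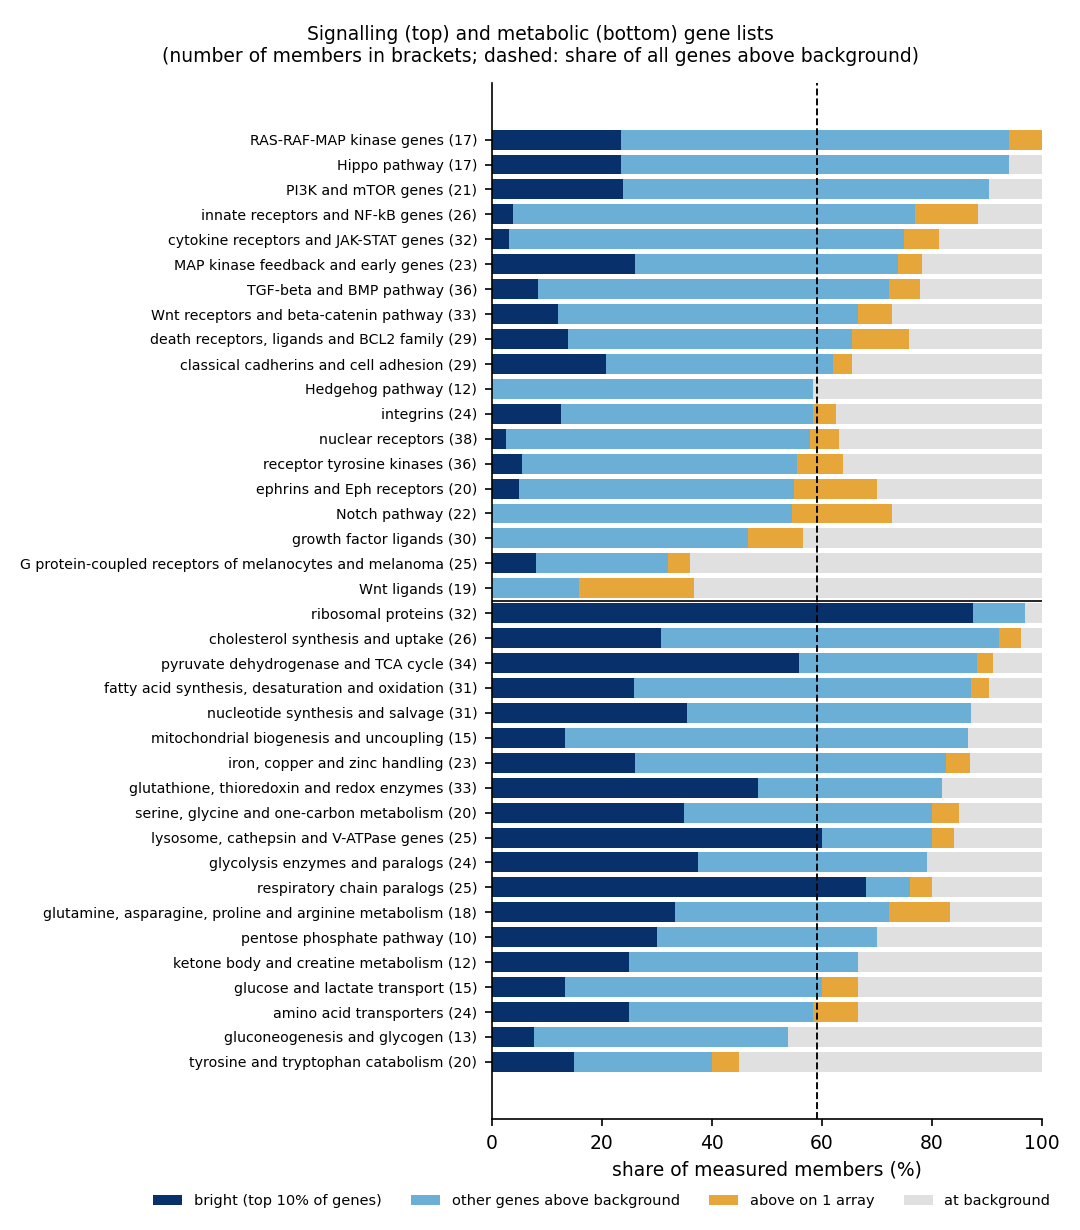
Share of the measured members of each signalling list (top) and metabolic list (bottom) that were bright, otherwise above background, above on 1 array and at background, in percent, with a dashed line at 59.1% for all genes. Wnt ligands and G protein-coupled receptors fall short of the line, while ribosomal proteins and the TCA cycle reach far past it.

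Of glycolysis enzymes and paralogs 19 of 24 were above background and 9 bright, while 6 of the 30 listed symbols were not measured. The enolases measured, Eno3 at 303.5 and 239.7, and Eno2 at 46.3 and 23.4, were not bright. Eno1, Gapdh and Gpi1 were not among the measured members, so whether their steps had a bright member is not settled. Slc2a1, the basal glucose transporter, read 1431.9 and 1049.2, and Slc2a4, the insulin-dependent one, read 35.9 and 28.3. Hk2, a hexokinase of tumours, read 1533.6 and 1132.5, and Hk1 read 482.2 and 400.1. Aldoa read 6665.1 and 5851.3, and Pgk1 read 7446.9 and 6254.3, both near the top of all signals. Pkm, the pyruvate kinase of growing cells, read 3385 and 2393.9, while Pklr, the liver form, read 17.9 and 7.4. Ldha, which makes lactate, read 6266.6 and 5338.2, and Slc16a1, which carries lactate across the membrane, read 1011.2 and 1190.6, with the exporter Slc16a3 at 43.4 and 24.5. Germ cell paralogs were at background, with Pgk2 at 4.1 and 11.4, and Ldhc at 5.9 and 0.3.

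Gluconeogenesis was at background at the enzymes particular to liver and kidney. Pck1 read 6.9 and 3.3, Fbp1 read 9.1 and 10, and G6pc read 0.7 and 2.7. The mitochondrial Pck2, by contrast, was above background at 551 and 474.1. Glycogen genes of general use were measured, with Gyg, the primer glycogenin, bright at 3769 and 3644.8, and the synthase Gys1 at 137.4 and 114.3, while the muscle phosphorylase Pygm read 1.3 and 5.6.

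Mitochondrial oxidation was also strongly represented. In the pyruvate dehydrogenase and TCA list 30 of 34 were above background and 19 bright, led by Mdh1 at 4398.9 and 4438, and Mdh2 at 4028.9 and 4027.7. Cs, citrate synthase, read 1814.1 and 2274.7, and all 4 succinate dehydrogenase subunits were above background, with Sdhb at 3303.7 and 3461.7. Of the kinases that restrain pyruvate dehydrogenase, Pdk1 read 1947.3 and 808.1, a wide difference between replicates for a bright gene, Pdk3 read 548.3 and 458, and at background Pdk2 read 6.5 and 7.1, and Pdk4 read 5.8 and 5.3. In the respiratory chain 19 of 25 were above background and 17 bright. Cycs, cytochrome c, read 6850.5 and 7207.6, whereas its testis form Cyct read 7.3 and 8.2. Muscle or testis forms of cytochrome oxidase subunits were mixed. At background were Cox7a1 at 4.5 and 4.3, Cox8b at 1.9 and 8, and Cox6b2 at 9.3 and 0.4, while Cox8c read 56.4 and 60.1, and Cox6a2 read 25 and 20.8, both above background and not bright. Cox4i2, an isoform of lung, read 23.2 and 6.6 and passed the bound on replicate 1 alone. Ppargc1a, a coactivator of mitochondrial genes that MITF can drive, read 401.3 and 456.6.

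**Figure D5:**
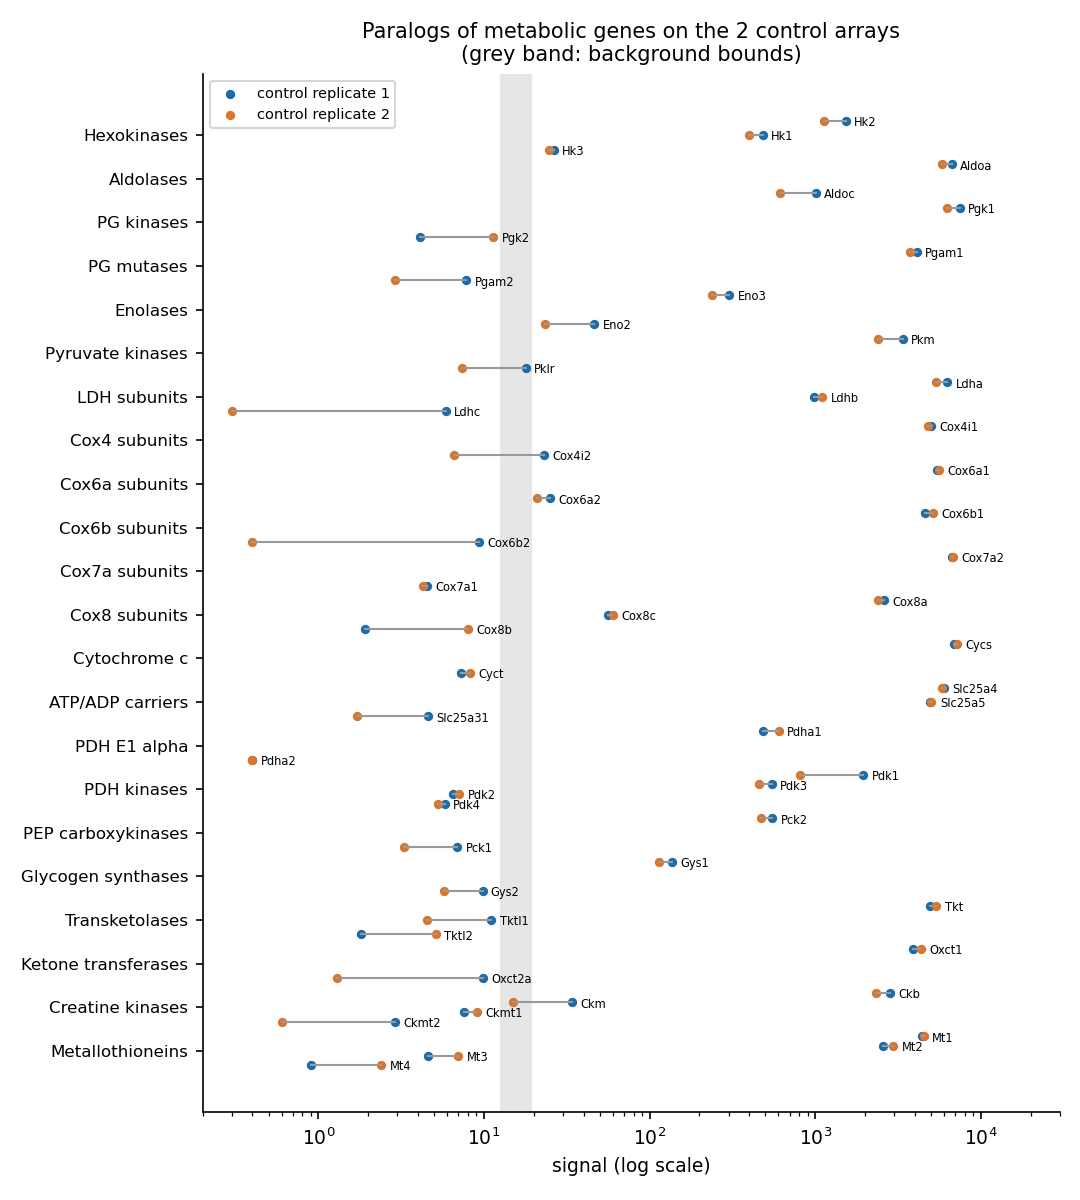
Signals of metabolic paralogs on both control arrays, logarithmic axis, a line joining the arrays of a gene and a band at the background bounds. In most families 1 general form lies to the right and tissue-specific forms lie in or left of the band.

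The pentose phosphate branch gave 7 of 10 genes, 70.0%, above background, beside 59.1% of all genes. Tkt, transketolase, read 4931.2 and 5400.6, and Pgd read 1666.3 and 3196.2, while of the paralogs of Tkt, Tktl1 read 11.1 and 4.5, and Tktl2 read 1.8 and 5.1. Serine synthesis was bright from end to end: Phgdh, which commits glycolytic carbon to serine, read 3105.8 and 3565.9, Psat1 read 1433.6 and 1799.7, and Psph read 1308.2 and 1356.4. Of the mitochondrial folate enzymes, Shmt2 read 1103.6 and 1034.6, and Mthfd2 read 2131.7 and 2021.1, also bright, whereas the cytosolic Shmt1 read 163.5 and 172.2. Gldc, the glycine decarboxylase, read 1.5 and 1.6, at background.

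In amino acid metabolism 13 of 18 glutamine, asparagine, proline and arginine genes, 72.2%, were above background, beside 59.1% of all genes. Asns, asparagine synthetase, read 2827 and 2500.8, and Glul, glutamine synthetase, read 1334.7 and 1240.3. Ass1, which makes arginine precursors and is often low in melanoma, read 16.3 and 17.6, above the bound on replicate 2 alone, while Asl, the next step, read 460.2 and 423.6. Of the urea cycle genes, Otc read 4.7 and 4.6, and Cps1 read 5.6 and 4.7, at background, as did Arg1 at 1.1 and 4.4. Transporters were above background in 14 of 24 cases, 58.3%, beside 59.1% of all genes. Slc38a2 read 2738.8 and 2695.1, and the cationic carrier Slc7a1 read 2687.4 and 2623.7. Of the chains of the leucine exchanger, Slc7a5 read 1419 and 1159.1, and Slc3a2 read 1660.1 and 1355.2. The cystine carrier Slc7a11 read 254.5 and 215.9.

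Tyrosine, the substrate of pigment synthesis, has other fates. On the list of tyrosine and tryptophan catabolism 8 of 20 genes, 40.0%, were above background, beside 59.1% of all genes. Tat, the liver transaminase, read 4.7 and 8.7, Hpd, its next enzyme, read 15.5 and 4.6, and Th, which makes DOPA in neurons, read 11.2 and 3.6. In contrast Mif, a cytokine that also acts as a tautomerase, read 5558.2 and 5010.6, and Qdpr, which recycles the tetrahydrobiopterin cofactor, read 2157.4 and 2672.2. Maoa, an oxidase of amines, read 728.3 and 1433.8. Ido1, which breaks down tryptophan, read 12.8 and 12.7, and passed the bound on 1 array.

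Lipid synthesis was well represented. Of 31 fatty acid genes 27 were above background, with Scd2, a desaturase, at 6510.6 and 6139.6, and the carrier Fabp5 at 6336.7 and 6043.9. Fasn read 689.6 and 974.5, just under the bright threshold, and Fabp7, a carrier of crest and glial cells, read 360.2 and 370.1. Cd36, a fatty acid uptake protein, read 3.9 and 4.8, at background. Cholesterol genes were above background in 24 of 26 cases, with Fdps at 2820 and 3102.4, and Hmgcs1 at 2016.5 and 1914.7. In ketone body use Oxct1, the committed enzyme, read 3893.6 and 4365.6, and Ckb, the brain creatine kinase, read 2822.6 and 2319.5, whereas of the mitochondrial kinases Ckmt1 read 7.6 and 9.1, and Ckmt2 read 2.9 and 0.6, both at background.

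Redox genes were above background in 27 of 33 cases and bright in 16. Gstp1, a glutathione transferase, read 6393.5 and 6496.1, Txn1, thioredoxin, read 5896.6 and 6553.6, and Cat, catalase, read 1253.2 and 1464.1. All 3 peroxiredoxins measured were bright, led by Prdx2 at 2300.7 and 2713.4. Nqo1, a target of NRF2, was dim at 59.7 and 62.9, while the factor's own gene Nfe2l2 read 1551.9 and 1585.6. Among metal genes Fth1, ferritin heavy chain, read 7491.8 and 7517.7, and of the metallothioneins, Mt1 read 4422.4 and 4539.1, and Mt2 read 2573.6 and 2968.5, with the brain form Mt3 at 4.6 and 7. The transferrin receptor Tfrc read 2525 and 2250.

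Nucleotide synthesis was above background in 27 of 31 cases, led by Nme2 at 4158.9 and 5138.4, and Rrm2, a ribonucleotide reductase subunit, at 3114.5 and 3906.1. Ribosomal protein genes were above background in 31 of 32 cases and bright in 28, with Rps16 as the exception already named and Rps27 low at 62.7 and 35. Lysosomal genes, whose organelle is kin to the melanosome, were above background in 20 of 25 cases and bright in 15. Ctsz, a cathepsin, read 4575.9 and 4336.5, Lamp1 read 3132.5 and 3027.6, and Grn, progranulin, read 3194.1 and 3129.5. Among members at background were Ctss, a cathepsin of leukocytes, at 0.7 and 7.3, and the kidney proton pump subunit Atp6v1b1 at 5.7 and 5.4.

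The 30 highest signals of the line held 13 ribosomal protein genes, 4 genes of the melanocyte lists and 4 of the metabolic lists other than the ribosomal one. Uqcrb, at rank 4, and Akr1a1, at rank 13, are enzymes or subunits of metabolism outside those lists. The melanocyte genes were Dct at rank 6, Tyrp1 at rank 16, Gpnmb at rank 26 and Mlana at rank 27. Rps29 led at 9232.1 and 8964, followed by the galectin Lgals1 at 8207.9 and 8251.3. Of the 30, 24 were represented by probe sets whose names mark several transcripts or genes, so ranks at the very top can include signal of near copies.

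Between the replicates 298 genes above background, 2.77%, differed more than 2-fold. The widest toward replicate 1 included Malat1, a nuclear noncoding RNA, at 2393.9 and 385.4 on its brightest probe set, and Slc16a4, a carrier, at 95.3 and 17.8. Another Malat1 probe set went the other way, at 302.1 and 484.6. The widest toward replicate 2 included Ccn1, given above, and the chaperones Hsph1, at 270.6 and 796.1, and Hyou1, at 421.5 and 988.8. Levels of these genes are accordingly not settled by these arrays.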

How the data were processed

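The authors deposited 1 signal intensity per probe set, on a linear scale, and the submitters' processing notes name MAS5 as the tool. The software version and a genome build are not given in the sources used here. Only the 2 control shRNA arrays were used. Control probe sets were left out, and symbols came from the platform annotation: 34945 probe sets had 1 symbol, 932 several and 9160 none. Of the 18193 genes 18032 matched a RefSeq record (GRCm38.p6), with 0 symbols updated. Detection calls were not used here, so the background bound was the 95th percentile of 73 chemosensory receptor genes per array. Named genes were the 5 markers and genes drawn from the 30 brightest, members of the lists, the 10 widest replicate differences each way and the 20 brightest genes outside the lists. C1qb, the Y-linked genes, Xist and the neighbours of Cdkn2a were named after their values were seen. The 60 lists held 1391 symbols, of which 1255 were measured; the other 136 were not analysed here. The members and lists were chosen with earlier results of these data known. Signals were ranked untransformed, and log2(signal + 16) served for the correlation. Computation used Python 3.11.15 with pandas 2.3.3, numpy 2.4.6 and scipy 1.17.1 and was tested on simulated data. Other bounds, probe set choices and scalings were tried, and each array was left out in turn. The 2 arrays limit the precision.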

Additional observations from a re-analysis of the deposited data

How the results depend on the processing

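The calls for dim genes depend most on the bound. Genes of other lineages above background numbered 25 of 141, and 12 of 141 with the bound at the 99th percentile of the chemosensory genes. With probe sets free of the _s, _x and _a suffixes the count was 15 of 125. The melanocyte count of 35 of 42 stayed within 1.5 times under every alternative run. Judged on 1 array alone, 11209 to 11291 genes were above background, 6902 to 6984 at background, 27 to 31 of the other lineages and 35 to 35 melanocyte genes above. The lowest percentile of a marker among the values obtained was 88.7, for Sox10 with the mean over its probe sets. Sox10 has no probe set free of the suffixes and so has no value under that choice. No paired analysis was possible because only 1 group of 2 arrays is described and nothing is compared with it.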

Other observations

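Beyond the gene lists, the 20 highest signals among genes outside them that are not ribosomal, translation or cytoskeletal by name were led by Lgals1, at 8207.9 and 8251.3, Dbi, the acyl-CoA binding protein, at 7820.9 and 7394.1, and Uqcrb, a subunit of respiratory complex III, at 7262.5 and 7935.6. They also held Ptgds, the prostaglandin D2 synthase, at 5374.4 and 5205.2. Others of the 20 were Hspa8, a chaperone, at 5723.3 and 6733.9, Npm1, nucleophosmin, at 5328.3 and 5579.2, and Hmgn1, a nucleosome binding protein, at 6221.1 and 6588.4.

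Xist, the RNA that coats an inactive X chromosome, had 3 probe sets, of which the brightest read 20.7 and 10.2, above the bound on replicate 1 alone. The Y-linked genes Eif2s3y, Kdm5d and Uty were at background on both arrays, with brightest values of 4.1 and 4.7, 6 and 3.9, and 7.9 and 6, in that order.

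Probe sets with no gene symbol or with several were also measured: 2814 of 10092, 27.9%, were above background on both arrays. They were not named.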
